A study of Mus musculus with 4 samples.

Results

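The genes described here are 10 general macrophage and leukocyte genes, Adgre1, Cd68, Lyz2, Aif1, Laptm5, Tyrobp, Spi1, Ptprc, Cd53 and Cx3cr1. They were taken by symbol from the 55377 genes of the table, as a gauge of myeloid RNA in an adipocyte preparation, and all 10 passed the filter on low values that left 16867 genes for testing. The samples were whole adipocytes from perigonadal white fat, a visceral depot, of male mice kept on standard diet. There were 2 bulk RNA-sequencing libraries from CKO mice and 2 from littermate controls whose genotype label reads WT. BLIMP1, a transcriptional repressor whose gene is Prdm1, and macrophages stand in the series title. The labels do not spell out CKO, and any deleted gene or Cre driver, the age of the mice and whether each library came from its own animal are not stated in the sources used here. P-values therefore measure only the spread between these libraries, which may be technical.

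Macrophages are phagocytes that lie among the adipocytes of visceral fat, and their number there is known to grow in obesity. PU.1, the protein of Spi1, is the transcription factor that sets up the myeloid lineage, and the other genes of the set encode surface, adaptor, lysosomal and cytoskeletal proteins that myeloid cells or leukocytes in general make in quantity. In a preparation of adipocytes such genes serve as a gauge of RNA from these other cells.

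Total reads were 25260216 and 26742547 in CKO libraries, against 24152081 and 26145384 in WT libraries. The 14 adipocyte markers, among them Adipoq, Plin1 and Cidec, were all present, and together held 6.52% and 4.14% of reads in CKO libraries against 3.82% and 1.55% in WT libraries. WT replicate 2 stood apart. Across the genes tested its Pearson correlation with the other libraries on the log2 scale was 0.856 to 0.939, while CKO replicate 2 and WT replicate 1 correlated at 0.975, above the 0.969 between the CKO libraries.

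All 10 pan-myeloid genes had fewer reads in the CKO libraries, and in the same order of libraries. CKO replicate 1 was lowest, then CKO replicate 2, then WT replicate 1, with WT replicate 2 highest, an order that 17.0% of all genes tested also had. Both CKO libraries lay below both WT libraries for 10 of 10 genes, against 26.8% of all genes tested, and above them for 0 of 10, against 23.9%. The median log2 change, CKO minus WT, was -2.67 for the 10 genes and 0.015 for all genes tested. No gene passed an adjusted p of 0.05 (0.0% of all genes; limma, Benjamini-Hochberg over all genes tested, adjusted p 0.459 for each of the 10). At an unadjusted p under 0.05, 7 of the 10 were lower, against 7.25% of all genes, and 0 of the 10 were higher, against 3.36%. In bulk RNA, fewer myeloid cells and less RNA per cell cannot be told apart.

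For 10 of 10 genes the gap between CKO replicate 2 and WT replicate 1, the nearest libraries of the 2 groups, was smaller in log2 units than the gap between the WT libraries, and for 9 of 10 it was smaller than the gap between the CKO libraries. Across all genes tested these nearest libraries were also the most alike pair (Pearson correlation 0.975). The share of all genes with such gaps was not counted. WT replicate 2 was 1.58 to 4.10 times WT replicate 1 (median 3.50), and CKO replicate 2 was 1.28 to 3.30 times CKO replicate 1 (median 2.89). CKO replicate 2 was 0.336 to 0.831 times WT replicate 1 (median 0.485). Reads here were scaled between libraries by size factors.

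**Figure D1:**
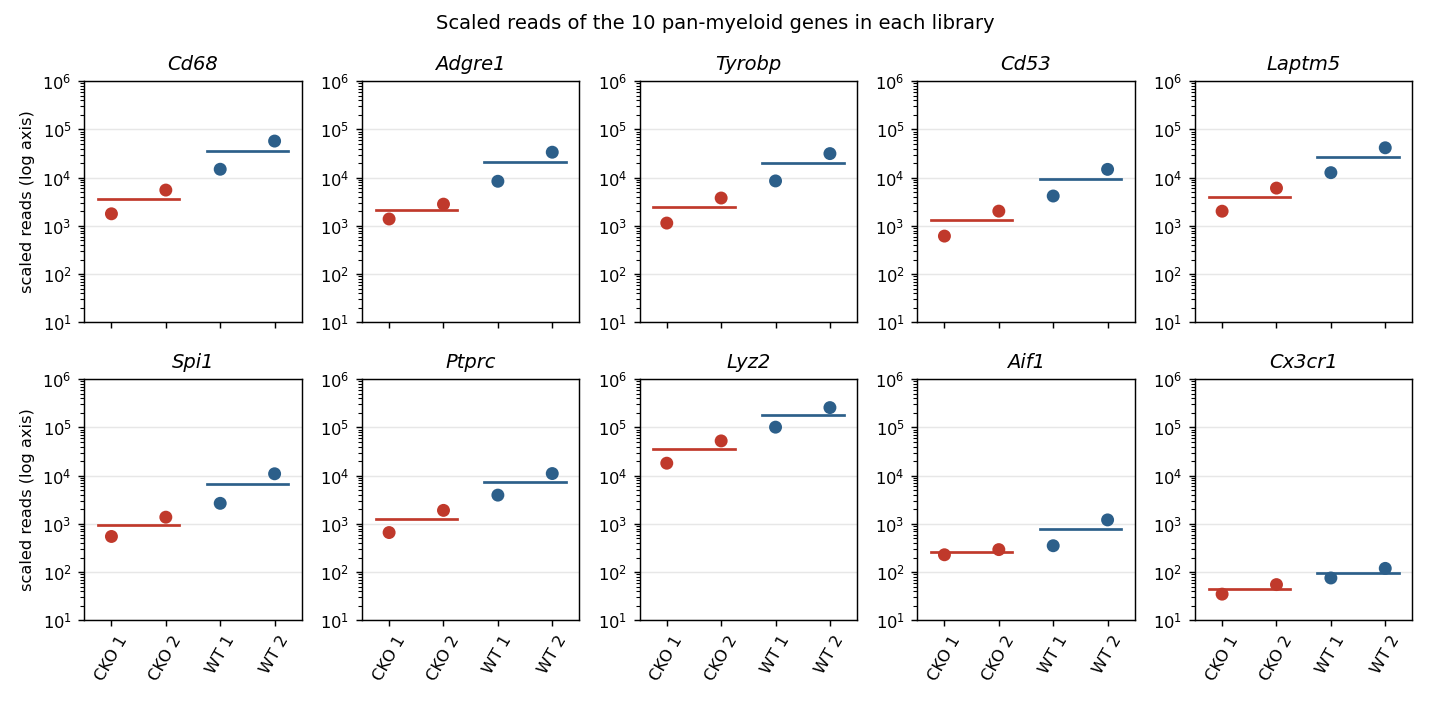
Scaled reads of each pan-myeloid gene in the 4 libraries, on a log axis shared by all panels. Points are libraries, CKO in red and WT in blue, and bars are group means. Every gene has its lowest value in CKO 1 and its highest in WT 2, and the spread is least for Cx3cr1, from 35.1 to 120 scaled reads.

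The surface proteins of the set were Adgre1, Ptprc, Cd53 and Cx3cr1. Adgre1, on chromosome 17 of GRCm38 from 57358691 to 57483527, encodes the adhesion receptor by whose antigen mouse macrophages are most often recognised. It had 1384 and 3106 reads in CKO libraries, against 8071 and 31880 in WT libraries, or 2100 ± 1009 scaled reads in CKO against 20950 ± 17776 in WT (SD, n = 2). The groups did not overlap, and WT replicate 2 alone carried most of the reads. The log2 change was -3.08 (SE 0.76, 95% interval -5.05 to -1.12, adjusted p 0.459 in limma). Without WT replicate 2 it was -2.08, and without CKO replicate 1 it was -2.57.

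Ptprc, on chromosome 1 from 138062861 to 138175708, encodes CD45, the receptor phosphatase on all nucleated blood cells. Its reads were 661 and 2105 in CKO libraries, against 3800 and 10506 in WT libraries. Ptprc had the profile nearest to the mean of the 10 genes, at a root mean square distance of 0.11 on the log2 scale over the 4 libraries. Its log2 change was -2.55 (SE 0.71, adjusted p 0.459 in limma). Cd53, on chromosome 3 from 106759921 to 106790149, encodes a tetraspanin of leukocytes. It had 612 and 2227 reads in CKO and 3995 and 14060 in WT, a log2 change of -2.81 (SE 0.83, adjusted p 0.459 in limma). For both genes the CKO values lay below the WT values.

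Cx3cr1, on chromosome 9 from 119901616 to 120069879, encodes the fractalkine receptor of patrolling monocytes and some resident macrophages. It was the rarest of the set, with 35 and 61 reads in CKO libraries, against 73 and 114 in WT libraries. The groups did not overlap, but its whole range over the 4 libraries was 1.74 on the log2 scale, against 3.97 for the mean profile of the 10 genes. The log2 change was -1.10 (SE 0.49, 95% interval -2.37 to 0.18, adjusted p 0.459 in limma). The annotated span of Cx3cr1 takes in several other genes, and Gm33858, on the opposite strand, shares 78 bases of exon with it. Gm33858 had 2 reads in each CKO library and 0 in each WT library.

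Spi1 and Tyrobp encode a transcription factor and a signalling adaptor. Spi1, on chromosome 2 from 91082390 to 91115756, had 548 and 1521 reads in CKO libraries, against 2569 and 10392 in WT libraries, a log2 change of -2.63 (SE 0.80, adjusted p 0.459 in limma). Among the 10 genes Spi1 had the widest ratio between the WT libraries, 4.10, and without WT replicate 2 its log2 change was -1.62. Tyrobp, on chromosome 7 from 30413760 to 30417585, encodes DAP12, the ITAM adaptor that carries signals from receptors such as TREM2. It had 1139 and 4161 reads in CKO and 8204 and 29849 in WT. Both CKO values lay below both WT values, and the log2 change was -2.98 (SE 0.85, adjusted p 0.459 in limma).

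Cd68, Laptm5 and Lyz2 encode proteins of lysosomes and granules. Cd68, on chromosome 11 from 69664213 to 69666153, encodes a heavily glycosylated protein of the lysosomal membrane of macrophages. Its reads were 1773 and 6083 in CKO libraries, against 14315 and 54245 in WT libraries, or 3643 ± 2640 scaled reads in CKO and 35950 ± 29820 in WT (SD, n = 2). Cd68 had the lowest log2 change of the set, -3.22 (SE 0.86, 95% interval -5.44 to -0.997, adjusted p 0.459 in limma), and 0.753% of all genes tested had a lower one. Laptm5, on chromosome 4 from 130913125 to 130936141, encodes a lysosomal membrane protein of haematopoietic cells. It had 2006 and 6681 reads in CKO and 12175 and 39387 in WT, a log2 change of -2.71 (SE 0.80, adjusted p 0.459 in limma).

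Aif1, on chromosome 17 from 35170991 to 35176068, encodes IBA1, a calcium-binding protein of the actin cytoskeleton in macrophages and microglia. It had 229 and 324 reads in CKO libraries, against 340 and 1151 in WT libraries. WT replicate 1 was close to the CKO libraries, and WT replicate 2 alone stood well above them. The log2 change was -1.33 (SE 0.63, 95% interval -2.96 to 0.30, adjusted p 0.459 in limma). Without WT replicate 2 it was -0.44, and without WT replicate 1 it was -2.22.

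**Figure D2:**
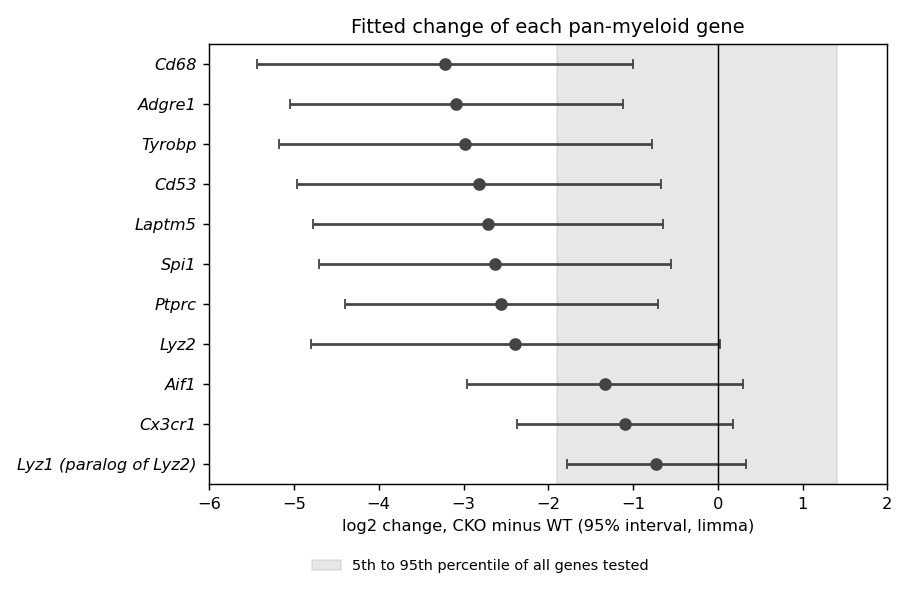
Fitted log2 change, CKO minus WT, of the 10 pan-myeloid genes and of Lyz1, with 95% intervals from limma. The grey band runs from the 5th to the 95th percentile of all genes tested, -1.89 to 1.41. The points of 8 pan-myeloid genes lie below the band, and those of Aif1, Cx3cr1 and Lyz1 lie inside it.

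Lyz2, on chromosome 10 from 117277331 to 117282321, encodes the lysozyme of macrophages and neutrophils. It was the most abundant gene of the set, with 18064 and 57859 reads in CKO libraries, against 97222 and 244332 in WT libraries. CKO values lay below WT values, and the log2 change was -2.39 (SE 0.94, 95% interval -4.80 to 0.032, adjusted p 0.459 in limma). Of the reads of all 10 genes, Lyz2 held 68.3% (95% Wilson interval 67.7 to 68.9) and 68.8% (68.5 to 69.1) in the CKO libraries, against 64.5% (64.2 to 64.7) and 56.1% (55.9 to 56.2) in the WT libraries. These and the other intervals of shares cover counting error only.

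Lyz1, the lysozyme gene beside Lyz2 (117287797 to 117292868 on chromosome 10), had another pattern. It had 1943 and 4228 reads in CKO libraries, against 5014 and 3731 in WT libraries, so that WT replicate 2, the highest library for Lyz2, was not the highest for Lyz1. After scaling, both CKO libraries lay below both WT libraries, at 1946 and 3830 against 5206 and 3923. Its log2 change was -0.73 (SE 0.41, adjusted p 0.487 in limma). Reads of Lyz2 were 9.30 and 13.7 times those of Lyz1 in the CKO libraries and 19.4 and 65.5 times in the WT libraries. The transcripts of both genes are close copies: 195 of the 1267 distinct 50-base windows of Lyz2 transcripts (15.4%) also occur in Lyz1, so that counting may have shared out some of their reads. Of the other members' windows, 1.06% for Cx3cr1 and 0.075% for Ptprc occur in another gene, and 0 for the remaining 7.

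Because the neighbouring lysozyme genes differed in pattern, their promoters are shown side by side, from RefSeq on GRCm38.p6, each from 250 bases before to 50 bases after the start of the gene. The windows are chr10:117282223-117282522 for Lyz2 and chr10:117292819-117293118 for Lyz1, both on the minus strand and written 5′ to 3′ along the gene. Capitals mark bases that differ between them or have no partner in a global alignment.
Lyz2: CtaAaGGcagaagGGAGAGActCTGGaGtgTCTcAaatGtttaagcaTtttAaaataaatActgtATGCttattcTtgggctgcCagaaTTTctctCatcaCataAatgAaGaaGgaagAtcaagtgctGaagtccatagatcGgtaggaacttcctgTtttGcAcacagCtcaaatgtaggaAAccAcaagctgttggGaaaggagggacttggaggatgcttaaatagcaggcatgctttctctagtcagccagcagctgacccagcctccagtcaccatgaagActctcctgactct
Lyz1: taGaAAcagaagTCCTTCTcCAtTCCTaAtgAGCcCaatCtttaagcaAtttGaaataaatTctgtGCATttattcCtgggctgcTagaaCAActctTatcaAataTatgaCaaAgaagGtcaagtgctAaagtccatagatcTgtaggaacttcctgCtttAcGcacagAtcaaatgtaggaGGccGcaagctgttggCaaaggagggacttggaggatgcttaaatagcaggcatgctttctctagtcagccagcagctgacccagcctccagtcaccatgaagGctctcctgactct
Of 302 alignment columns, 249 (82.5%) were identical, with an unbroken identical run of 86 bases around the start and the first codons. Whether the differing bases bear on the reads of either gene was not tested.

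Promoter windows were found for 7 of the 10 genes; Adgre1, Tyrobp and Spi1 had none in the table. The core of the PU.1 motif, GAGGAA on either strand, was searched in them because Spi1 is itself a member. At least 1 copy stood in the windows of 5 of these genes, Cd68, Cd53, Laptm5, Ptprc and Aif1, and 28.3% of all 32851 promoter windows of the same length hold one. In Ptprc, which has several windows, 1 of them held it. The windows of Lyz2 (log2 change -2.39) and Cx3cr1 (-1.10) held 0 copies, while that of Aif1 (-1.33) held 1. Whether the copies bear on the changes was not tested. The windows of Cd68 and Cx3cr1 are shown for the lowest and the highest log2 change of the set, and that of Cd53 for copies close to the start on both sides. In the order Cd68, Cd53 and Cx3cr1 they are chr11:69666121-69666420, chr3:106790100-106790399 and chr9:120068247-120068546, all on the minus strand, with the motif or its reverse complement in capitals.
Cd68: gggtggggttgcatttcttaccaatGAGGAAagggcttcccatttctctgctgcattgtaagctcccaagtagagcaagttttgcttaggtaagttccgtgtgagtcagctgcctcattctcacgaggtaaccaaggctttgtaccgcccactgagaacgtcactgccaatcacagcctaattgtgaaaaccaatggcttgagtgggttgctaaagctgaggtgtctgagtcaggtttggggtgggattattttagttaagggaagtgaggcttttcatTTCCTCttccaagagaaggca
Cd53: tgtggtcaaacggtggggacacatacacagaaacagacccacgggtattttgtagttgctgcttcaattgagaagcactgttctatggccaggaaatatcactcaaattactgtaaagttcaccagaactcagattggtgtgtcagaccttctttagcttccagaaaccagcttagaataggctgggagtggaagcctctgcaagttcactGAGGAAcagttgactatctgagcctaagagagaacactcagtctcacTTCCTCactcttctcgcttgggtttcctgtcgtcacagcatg
Cx3cr1: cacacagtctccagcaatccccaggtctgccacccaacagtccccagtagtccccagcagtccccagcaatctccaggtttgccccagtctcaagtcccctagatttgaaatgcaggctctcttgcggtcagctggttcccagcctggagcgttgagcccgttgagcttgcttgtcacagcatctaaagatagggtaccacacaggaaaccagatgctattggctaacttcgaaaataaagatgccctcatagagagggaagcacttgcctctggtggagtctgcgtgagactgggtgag
In Cd53 the copies begin 39 bases before and 8 bases after the start, and in Cd68 they begin 225 bases before and 29 bases after it. Such a match is a run of letters and not a measured binding site.

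Levels between genes were compared as RPKM, the reads of a gene scaled to its annotated exon length and to the library total. The order of levels hardly differed between libraries: 8 of the 10 genes held the same rank in all 4. Lyz2 was highest, at 543 and 1644 RPKM in CKO libraries and 3059 and 7101 in WT libraries. Tyrobp and Cd68 came next and lay close together in each library. Tyrobp was at 67.6 and 233 RPKM in CKO and 509 and 1712 in WT, and Cd68 was at 55.8 and 181 in CKO and 472 and 1651 in WT. Laptm5 came after them, from 21.0 RPKM in CKO replicate 1 to 398 in WT replicate 2. Adgre1 and Cd53 followed and swapped places in CKO replicate 2, where Adgre1 had 35.9 RPKM and Cd53 47.8. Spi1, Aif1 and Ptprc were lower still, and Cx3cr1 was last at 0.308 and 0.506 RPKM in CKO and 0.671 and 0.968 in WT. The spread between libraries of a group exceeded the distance between neighbours such as Tyrobp and Cd68. The exon length of Ptprc, 18313 bases, takes in every annotated isoform, which lowers its RPKM.

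Within the set, Cx3cr1 and Aif1 had the log2 changes nearest to 0. Their log2 changes were 1.54 and 1.28 higher than the mean change of the other 9 genes. The lowest changes relative to the other 9 were those of Cd68 (-0.82), Adgre1 (-0.67) and Tyrobp (-0.55). As a share of the reads of the 9 genes other than Lyz2, Cx3cr1 held 0.417% (95% Wilson interval 0.300 to 0.580) and 0.232% (0.181 to 0.298) in the CKO libraries. In the WT libraries its share was 0.136% (0.108 to 0.171) and 0.0595% (0.0495 to 0.0715), so both CKO shares were higher. Aif1 held 2.73% and 1.23% in CKO and 0.635% and 0.601% in WT. The share of Cd68 was 21.1% and 23.2% in CKO and 26.7% and 28.3% in WT. The mix of these transcripts thus differed between the libraries beyond counting error, and with 2 libraries a group it was not tested.

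**Figure D3:**
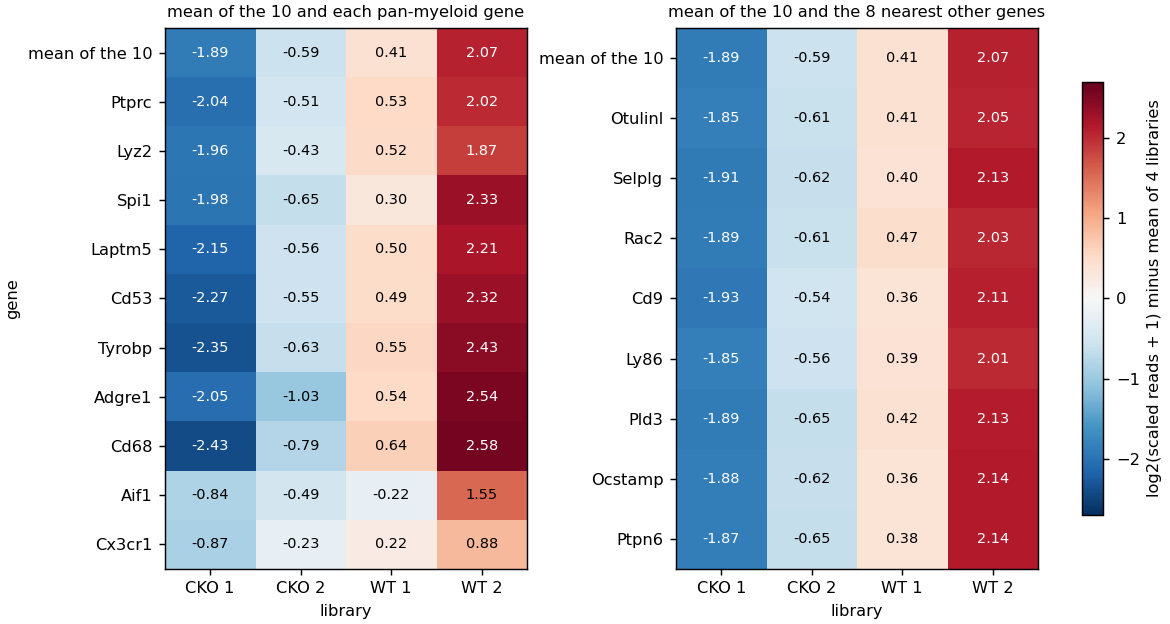
Each cell gives log2(scaled reads + 1) in a library minus the gene's mean over the 4 libraries, for the pan-myeloid genes (left, nearest to their mean first) and the 8 other named genes nearest to that mean (right). The mean profile is -1.89, -0.59, 0.41 and 2.07, and Aif1 and Cx3cr1 lie farthest from it.

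The named genes outside the set with the most similar profile over the 4 libraries were Otulinl, Selplg, Rac2, Cd9, Ly86, Pld3, Ocstamp and Ptpn6. Their root mean square distance from the mean profile was 0.029 to 0.049 on the log2 scale, below the 0.11 to 0.81 of the 10 members themselves. These outside genes were chosen as the nearest of all named genes tested, so that comparison was fixed by the choice. Otulinl, the nearest, had 176 and 461 reads in CKO libraries, against 813 and 2506 in WT libraries. Selplg, the P-selectin ligand of leukocytes, had 500 and 1353 in CKO and 2393 and 7868 in WT. In all, 265 genes outside the set lay nearer to the mean profile than the median member did (0.26). With 4 libraries, of which WT replicate 2 carries the widest part of the profile, many genes can share it.

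Lists of other immune and myeloid genes gave the following values, at the same thresholds. Of 20 other macrophage genes, 18 were lower in CKO (48.9% of all genes tested were), and the median log2 change was -2.43. At an unadjusted p under 0.05 in limma 17 of them were lower, against 7.25% of all genes tested. The 1 gene of that list higher at this threshold was Lyve1, which encodes a hyaluronan receptor, with 669 and 381 reads in CKO libraries, against 206 and 199 in WT libraries (log2 change 1.18). The most abundant of them was the cysteine protease gene Ctss, with 2469 and 13074 reads in CKO libraries, against 26120 and 72866 in WT libraries, followed by the complement gene C1qb, with 4475 and 8090 in CKO and 15149 and 52592 in WT. Of 19 pan-leukocyte genes tested, 19 were lower, 17 at an unadjusted p under 0.05, with a median of -2.50. Rac2 and Ptpn6, named above for their similar profile, belong to this list. Lcp1, the leukocyte actin bundler plastin, and Itgb2, the integrin beta chain CD18, had log2 changes of -3.01 and -3.07. Of 19 partners of PU.1 and genes of ITAM signalling, 18 were lower, 14 at an unadjusted p under 0.05, with a median of -2.31. The ITAM chain gene Fcer1g was at -2.67, while Cebpa, a factor that adipocytes also make, was at 0.55. No gene of these lists passed the adjusted threshold in limma (adjusted p 0.459 or above). Without WT replicate 2 the 3 medians were -1.48, -1.72 and -1.46.

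Several genes of the set, among them Ptprc, Cd53 and Lyz2, are also made by other leukocytes, and the markers of those cells did not share 1 pattern. Of 10 monocyte markers tested, 5 were lower and 5 higher (median -0.018), and 1 was higher at an unadjusted p under 0.05. The 4 most abundant were Nr4a1 (-0.04), F13a1 (0.25), Ccr2, the receptor that brings monocytes into tissue (-1.48), and Ace (0.26). After scaling, Ccr2 alone of these had both CKO libraries below both WT libraries. How specific the listed markers are to monocytes in fat was not tested. Of 8 dendritic cell markers, 3 were lower, with a median of 0.80. Itgax, which encodes CD11c and which fat macrophages also make, had 157 and 1437 reads in CKO libraries, against 3421 and 7876 in WT libraries, the lowest log2 change of that list (-3.58). Zbtb46, a transcription factor gene of classical dendritic cells, had 2141 and 4077 reads in CKO libraries, against 1628 and 551 in WT libraries, a log2 change of 1.51. Its libraries stood in the same order as those of the endothelial marker Kdr (log2 change 1.68). Which cells the Zbtb46 reads came from was not tested. Of 7 neutrophil markers, 3 were lower (median 0.20), and the summed list of 12 held 15.5 and 17.4 CPM (reads scaled to the library total) in CKO and 20.5 and 30.9 in WT. Of 7 mast cell and eosinophil markers, 2 were lower and 5 higher (median 0.48), and Ms4a2 and Epx had 0 reads in every library. The 2 lower ones were the eosinophil genes Siglecf (log2 change -3.03) and Ccr3 (-4.38). The summed T cell list of 12 held 3.25 and 8.45 CPM in CKO and 15.5 and 10.6 in WT, with Cd8a at 0 reads throughout, and 3 of 4 genes tested were lower (median -1.65). The NK cell list held 1.43 and 4.56 CPM in CKO and 3.60 and 1.95 in WT, with 2 of 4 lower (median -0.034). The B cell list held 270 and 651 in CKO and 1098 and 552 in WT, nearly all of them from Ighm, with 3 of 6 lower (median -0.011). By the same sum the 10 pan-myeloid genes held 1047 and 3146 CPM in CKO and 6242 and 16673 in WT. At an unadjusted p under 0.05 in limma, lower markers numbered 3 for dendritic cells, 1 for neutrophils and 2 for mast cells and eosinophils. They numbered 2 for T cells, 1 for B cells and 0 for NK cells and monocytes. Higher at this threshold were 2 neutrophil markers and 1 monocyte marker, and 0 for the others. Of all genes tested, 7.25% were lower and 3.36% higher at it. The part of these cells in the members' reads was not tested.

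**Figure D4:**
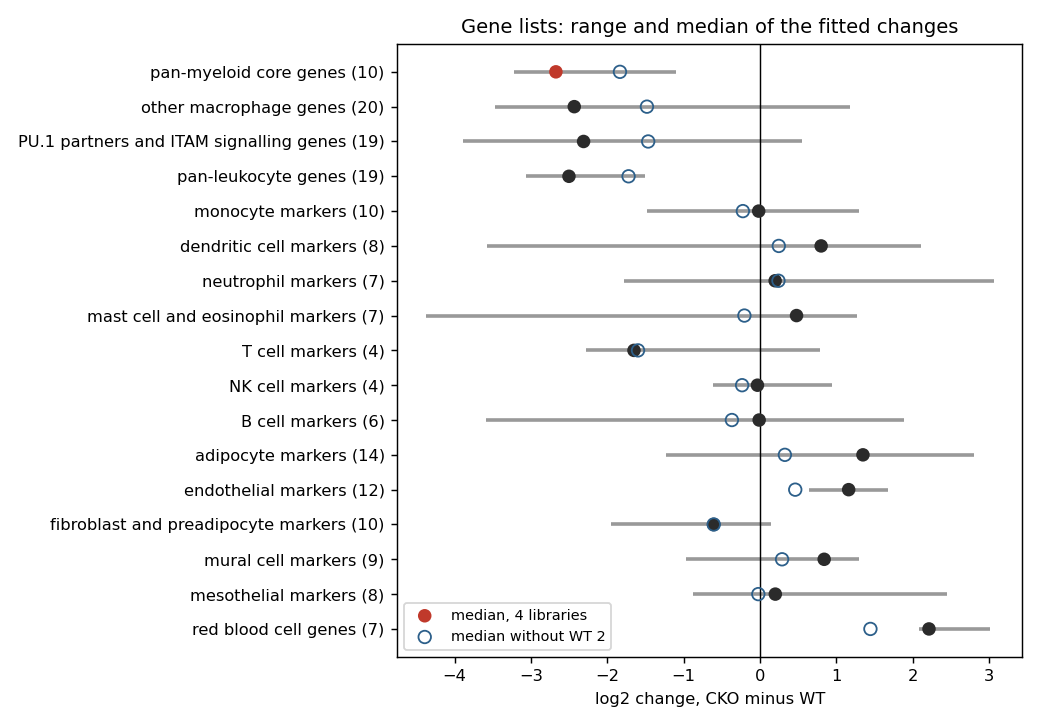
Range (grey line) and median (filled point) of the log2 changes, CKO minus WT, of the genes tested in each list, whose number stands in brackets. Open circles are medians without WT replicate 2. The pan-myeloid genes, in red, have a median of -2.67, or -1.83 without that library, and lie beside the lists of other macrophage and pan-leukocyte genes.

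Markers of the other cells of fat also differed between the libraries. Of 14 adipocyte markers 12 were higher in CKO (median 1.35, or 0.33 without WT replicate 2), as were 12 of 12 endothelial markers (median 1.16, or 0.46), against 51.1% of all genes tested. Adipoq had 71437 and 43436 reads in CKO libraries, against 44425 and 7561 in WT libraries, with CKO replicate 2 just below WT replicate 1, so that the groups overlapped. Of 7 red blood cell genes, 7 were higher, all at an unadjusted p under 0.05 (3.36% of all genes tested were; median 2.21, or 1.45 without WT replicate 2), and none passed the adjusted threshold in limma. Of 9 mural cell markers 6 were higher (median 0.84, or 0.29). Of 10 fibroblast markers, 8 were lower (median -0.61), and of 8 mesothelial markers 3 were lower (median 0.20). For each 100 reads of the adipocyte markers there were 1.61 and 7.60 reads of the pan-myeloid genes in CKO libraries, and 16.4 and 107 in WT libraries. Of the 405650 adipocyte marker reads in WT replicate 2, Lpl held 189753 and Fabp4 120652, so the sum rests largely on these genes. Whether all these reads came from adipocytes was not tested. The pan-myeloid genes together held 0.105% (95% Wilson interval 0.103 to 0.106) and 0.315% (0.312 to 0.317) of all reads in the CKO libraries. In the WT libraries they held 0.624% (0.621 to 0.627) and 1.67% (1.66 to 1.67). The part of the differing cell content in the members' values was not tested.

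**Figure D5:**
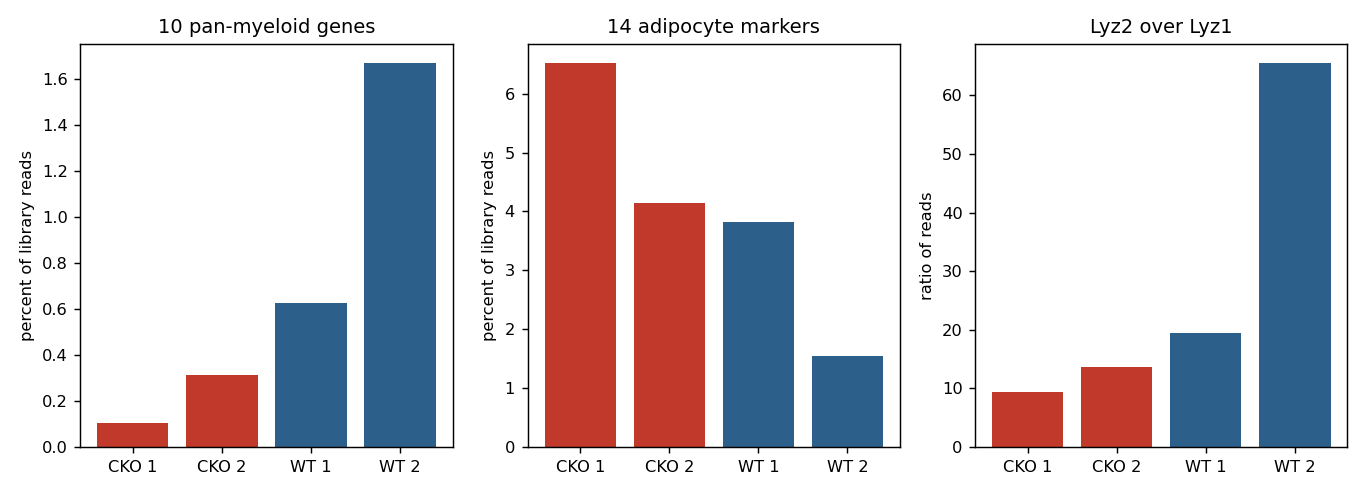
Share of library reads held by the 10 pan-myeloid genes (left) and the 14 adipocyte markers (middle), and the ratio of Lyz2 to Lyz1 reads (right), in each library. Bars start at 0. The pan-myeloid share is 0.105% and 0.315% in CKO libraries, against 0.624% and 1.67% in WT libraries, while the adipocyte share is highest in CKO 1 and lowest in WT 2.

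With WT replicate 2 left out, the median log2 change was -1.83, and 6 of the 10 were lower at an unadjusted p under 0.05, against 3.98% of all genes. Without CKO replicate 1 the median was -1.94 and 0 of the 10 reached that threshold, against 1.26% of all genes. Without CKO replicate 2 the median was -3.41 with 7 of 10 (5.86% of all genes). Without WT replicate 1 the median was -3.61, and 8 of the 10, all but Lyz2 and Cx3cr1, were lower with a limma adjusted p below 0.05, as were 5.56% of all genes. In each of these fits the lone library of a group is assumed to vary like those of the other.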

How the data were processed

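RNA sequencing of isolated adipocytes was analysed from the table the authors deposited. The labels' protocols name TRIzol extraction, RNeasy columns and a NovaSeq 6000. The submitters' processing notes name STAR 2.7.5c, FastQC and GRCm38.p6. How reads were counted (tool, gene models, strand) is not stated in the sources used here. The deposited values are on a log2 scale: 2 to the power of each value, minus 1, was whole within 0.01 for 100% of genes in each library, and totals differed. They are therefore log2(reads + 1), unscaled, although the authors call them normalised. Of 55487 rows, 27 with a number in place of a symbol were kept under their gene identifier. Of rows that shared another symbol the one of highest mean was kept, leaving 55377.

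Recovered reads were divided by median-of-ratios size factors (0.998, 1.10, 0.963 and 0.951 for CKO replicates 1 and 2 and WT replicates 1 and 2). Genes whose deposited log2 values averaged 3 or more were fitted as log2(scaled reads + 1) in limma 3.58.1 (R 4.3.3; trend, two-sided, group only, 95% intervals), with Benjamini-Hochberg adjustment over all genes tested. Fold changes of low genes are understated on this scale. An exact permutation of 2 against 2 libraries cannot go below p = 0.333. Replicates are numbered by record order. Coordinates and exon lengths are from GENCODE M21 (99.3% of identifiers matched), and promoters from RefSeq.

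The members and the 16 gene lists were chosen with earlier results of these data known. Besides the members, the genes named are Lyz1, Prdm1, Adipoq, up to 4 most abundant tested genes of each list (not all are printed) and the 8 of nearest profile. Lyve1 and list members singled out for 0 reads or for belonging to a count were named after their values were seen. The alternatives tried are in the closing section.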

Additional observations from a re-analysis of the deposited data

How the results depend on the processing

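The median log2 change of the 10 genes was -2.68 to -2.54 with no filter, a stricter filter at 6, a robust fit, no trend, unscaled values, scaling by total reads, quantile normalisation, a pseudocount of 10, library weights and voom weights, and 7 or 8 genes were then lower at an unadjusted p under 0.05. The share of all genes lower at that threshold was 7.25% in the limma fit used above, and was not counted for these settings. None of these settings gave a gene past the adjusted threshold. Leaving out 1 library moved the median between -3.61 and -1.83, the count at an unadjusted p under 0.05 between 0 (without CKO replicate 1) and 10 (without WT replicate 1), and the count of the 10 past the adjusted threshold between 0 and 8 (without WT replicate 1, adjusted p 0.0442 to 0.0499, the lowest over all alternatives). Over all genes that last count ran from 0 to 1775 (837 higher and 938 lower), also without WT replicate 1. With the values left unscaled the median of all genes was 0.15, against 0.015 with scaling. Cx3cr1 had the fewest reads of the 10 genes, 35 to 114 a library, and counting error was not separated from the spread between libraries for any gene. No paired analysis was possible because the labels give no replicate numbers that the groups share.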

Other observations

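Prdm1, the gene of the BLIMP1 repressor in the title, had 152 and 386 reads in CKO libraries, against 514 and 1135 in WT libraries, the same order of libraries as the pan-myeloid genes. Its log2 change, CKO minus WT, was -1.79 (SE 0.59, adjusted p 0.459 in limma), nearer to 0 than that of 8 of the 10 genes. As a share of its own reads and those of the 9 genes other than Lyz2, Prdm1 held 1.78% (95% Wilson interval 1.52 to 2.08) and 1.45% (1.31 to 1.60) in the CKO libraries, and 0.951% (0.872 to 1.04) and 0.589% (0.556 to 0.624) in the WT libraries. Both CKO shares were thus the higher ones, while the reads themselves were lower in CKO. Cells other than myeloid cells can make Prdm1, and the part of the gene that a CKO allele would lack is not stated in the sources used here.

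Single markers of other blood cells went both ways. Cd22, a B cell receptor of sialic acids, had 12 and 75 reads in CKO libraries, against 198 and 592 in WT libraries, a log2 change of -3.58 (SE 0.99). Ighm, the immunoglobulin heavy chain gene that held most reads of the B cell list, had 6658 and 17160 reads in CKO and 26178 and 13642 in WT, so its groups overlapped. Those of the B cell marker Cd79b also did, with 36 and 70 reads in CKO and 46 and 164 in WT. Ms4a1, of the same list, went the other way, with 40 and 38 in CKO and 25 and 14 in WT (log2 change 0.89). Ccr3, an eotaxin receptor of eosinophils, had 0 and 13 reads in CKO and 27 and 180 in WT. Siglecf, also an eosinophil gene, had 4 and 52 in CKO and 112 and 129 in WT. In the same list 5 of 7 genes were higher in CKO, among them Hdc, with 122 and 125 reads in CKO and 79 and 27 in WT. S100a9, a neutrophil gene, had 51 and 54 reads in CKO and 13 and 7 in WT, while its partner S100a8 had 71 and 139 in CKO and 263 and 377 in WT. None of these genes passed the adjusted threshold in limma (adjusted p 0.459 for Cd22, Ccr3, Siglecf, S100a8 and S100a9).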
